A study of Homo sapiens with 4 samples.

Results

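The miR-548 family was measured in HFE-145, a line of immortalised epithelial cells from the human stomach, by small RNA sequencing. It was taken as every entry of the deposited table whose name begins with hsa-miR-548. These were 70 of 2039 mature miRNA entries, and they held 65 distinct sequences. The libraries came from 2 samples carrying the vector and 2 overexpressing YAP5SA, a form of the Hippo pathway effector YAP in which serines targeted by the LATS kinases are replaced with alanine. Nothing in the labels says that the duplicates were grown separately, so p-values here measure the spread between 2 samples that may differ only technically. The comparison asked how entries of this family differ between YAP5SA and vector cells.

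miR-548 is a large, primate-specific family. Its genes derive from Made1, a short palindromic transposable element, and a transcript that runs across such a palindrome folds into a hairpin of the kind that Drosha and Dicer can cut into miRNAs. Copies lie on many chromosomes, often in introns, so the members share much of their sequence but not a promoter. A miRNA finds its targets chiefly through the seed, bases 2 to 8 from its 5′ end, and members whose ends differ by a base or more have different seeds.

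The sequences below, from RefSeq on GRCh38.p14 and identical to those in the deposited table, are shown because the results turn on them or because they show both arms of a typical member. Capitals mark the seed.
miR-548aq-5p: gAAAGUAAuugcuguuuuugcc
miR-548aq-3p: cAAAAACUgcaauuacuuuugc
miR-548ar-5p: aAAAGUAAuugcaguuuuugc
miR-548g-5p, miR-548x-5p and miR-548aj-5p: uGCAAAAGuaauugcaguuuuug
miR-548o-3p: cCAAAACUgcaguuacuuuugc
miR-548c-3p: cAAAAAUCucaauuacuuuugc
RefSeq sequences were matched for 48 of the 70 entries. The 7 bases AGUAAUU were found in 20 entries such as miR-548aq-5p and their reverse complement AAUUACU in 13, such as miR-548aq-3p. One or the other was present in 47.1% of the family against 0.203% of the 1969 other entries, where miR-26b-5p, miR-603, miR-876-3p and miR-1297 were the 4 holders. The median GC content was 35.7% in the family and 50.0% in the other entries, and 5 entries had a sequence wholly contained in that of another member.

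The positions of the shown members were scattered. miR-548c-3p lies at chr12:64622569-64622590 on the plus strand, in an intron of RASSF3, a Ras association domain family gene read in the same direction. The sequence of miR-548o-3p occurs at chr20:38516607-38516628 in an intron of RALGAPB on its strand, and at chr7:102405748-102405769 in an intron of PRKRIP1 on the opposite strand. The sequence shared by miR-548g-5p, miR-548x-5p and miR-548aj-5p occurs at chr4:147344681-147344703 outside annotated genes, at chr21:18686135-18686157 in an intron of the noncoding host gene MIR548XHG, and at chrX:38023949-38023971 in an intron of SYTL5 on the opposite strand. miR-548aq-3p lies at chr3:185767847-185767868 in an intron of IGF2BP2, which encodes an RNA-binding protein. These positions are on GRCh38 and the overlaps are from GENCODE 29.

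The libraries held 136903 to 217235 counted miRNA reads. YAP5SA replicate 1, the shallowest, stood apart: entries with a mean count under 20 took 10.5% of its counts, against 5.56% in YAP5SA replicate 2 and 3.41% and 3.15% in vector replicates 1 and 2. Epithelial markers (7 miRNAs, among them the miR-200 family and miR-203a) summed to 15045 to 25410 counts per 1000000 counted miRNA reads (CPM) in the 4 libraries, with none at 0. Of the 6 that could be tested, 4 were called lower in YAP5SA by edgeR, beside 21 of all 602 miRNAs tested (3.49%). The blood list summed to 1214 to 1877 CPM, the endothelial list to 23.0 to 219 CPM, the muscle list to 41.0 to 278 CPM and the liver miRNA to 25.6 to 36.5 CPM. The highest muscle, endothelial, blood and liver values were all in YAP5SA replicate 1, and their part in the results below was not tested. The family total, the order of the libraries and the tested members are also given without YAP5SA replicate 1.

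As a whole the family was rare and its total was high in 1 library. All 70 entries together had 228 reads in vector replicate 1 and 218 in vector replicate 2. They had 405 in YAP5SA replicate 1 and 189 in YAP5SA replicate 2. As a share of counted miRNA reads this was 0.105% in vector replicate 1 (exact binomial 95% interval 0.0918 to 0.119) and 0.112% in vector replicate 2 (0.0973 to 0.127). For YAP5SA it reached 0.296% (0.268 to 0.326) in replicate 1 and 0.0985% (0.0849 to 0.114) in replicate 2. Thus 1 YAP5SA library lay above both vector libraries and the other just below both. The group means were 1083 ± 47.2 CPM in vector and 1971 ± 1396 CPM in YAP5SA (SD, n = 2). Their ratio of 1.82 depended on the YAP5SA library kept: it was 0.909 without YAP5SA replicate 1 and 2.73 without YAP5SA replicate 2. An exact permutation test of 2 samples against 2 cannot give a two-sided p below 0.333, so the total was not tested. Reads without molecular identifiers are not independent molecules, so all intervals and limits given here hold counting error alone.

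**Figure D1:**
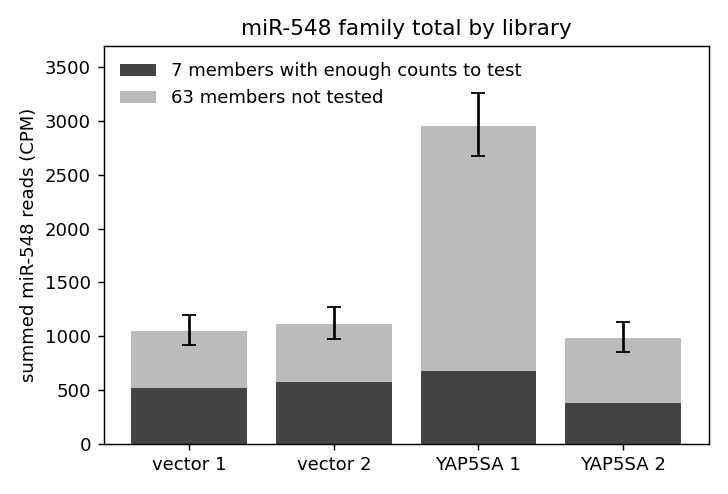
Summed miR-548 reads in CPM in each of the 4 libraries, split into the 7 members with enough counts to test (dark) and the 63 not tested (light); bars start at 0 and error bars are exact binomial 95% intervals of the total. YAP5SA replicate 1 stands at 2958 CPM, and the other 3 libraries lie between 985 and 1116 CPM.

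The higher total of YAP5SA replicate 1 lay less in the most abundant members than in rarer ones. For members with a mean count of 1 to under 2 and 2 to under 4, mean CPM was 6.05 and 6.27 times vector. It was 3.43 times at 4 to under 8, 1.36 times at 8 to under 16 and 1.12 times at 16 to under 32. In other entries the ratio fell too, from 3.59 and 3.97 in the first 2 of these classes to 1.88 in the last. The rarest members did not continue the rise. At a mean count of 0.5 to under 1 the ratio was 3.24 for 9 members and 3.98 for other entries. The 4 members with a mean count under 0.5 had no reads in YAP5SA replicate 1. The 16 members with a mean count of at least 5 summed to 787 and 768 CPM in vector replicates 1 and 2, 1381 CPM in YAP5SA replicate 1 and 573 CPM in YAP5SA replicate 2. The 54 with a mean count under 5 summed to 262 and 348 CPM in vector, 1578 CPM in YAP5SA replicate 1 and 412 CPM in YAP5SA replicate 2. The test described below takes entries with about 10 reads in at least 2 libraries, so an entry high in 1 library alone falls among the untested, and a split by testability follows in part from that filter. The 63 untested entries summed to 529 and 543 CPM in vector replicates 1 and 2, 2286 CPM in YAP5SA replicate 1 and 604 CPM in YAP5SA replicate 2. The 7 testable entries summed to 520 and 574 CPM in the vector libraries, 672 CPM in YAP5SA replicate 1 and 380 CPM in YAP5SA replicate 2. They made up 49.6% and 51.4% of family reads in vector cells and 22.7% and 38.6% in YAP5SA replicates 1 and 2.

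Every entry had a read in at least 1 library, and most had very few. Of the 70, 6 had a mean count of at least 10, 10 had 5 to under 10, 41 had 1 to under 5 and 13 had under 1. Reads were found for 48 and 51 entries in vector replicates 1 and 2, for 64 in YAP5SA replicate 1 and for 50 in YAP5SA replicate 2. At the depth of the shallowest library, 136903 reads, the expected numbers were 38.6, 43.1, 64 and 45.2. An entry at 0 could still have held up to 13.8 to 21.9 CPM, the limit that 3 counts give in the deepest and shallowest library. Reads were found in all 4 libraries for 30 entries, in no vector library for 6 and in no YAP5SA library for 5. None of the entries absent from a group had enough reads for the test described below. The 6 absent from vector libraries reached at most 10 reads, in miR-548at-3p (0 and 0 in vector, 10 and 1 in YAP5SA), which was picked out after its values were seen.

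Among the most abundant members, the groups mostly overlapped. miR-548aw led with 23 and 26 reads in vector and 20 and 18 in YAP5SA, here and below with replicate 1 before replicate 2. miR-548o-3p had 22 and 25 reads in vector and 16 and 8 in YAP5SA. miR-548d-3p had 14 and 12 in vector and 17 and 7 in YAP5SA. In CPM these 3 overlapped between the groups. The next entries in order of abundance were the 3 rows of the shared 5p sequence and miR-548c-3p, described below. Then came miR-548y with 9 and 10 reads in vector and 11 and 3 in YAP5SA. miR-548e had 8 and 6 in vector and 12 and 3 in YAP5SA. miR-548t-5p had 1 and 3 in vector and 18 and 3 in YAP5SA. The high value of each of these 3 was in YAP5SA replicate 1. miR-548ar-3p had 10 and 1 reads in vector and 10 and 6 in YAP5SA. miR-548b-3p had 8 and 1 in vector and 10 and 7 in YAP5SA. This pair had far fewer reads in vector replicate 2 than in vector replicate 1, and its groups overlapped.

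**Figure D2:**
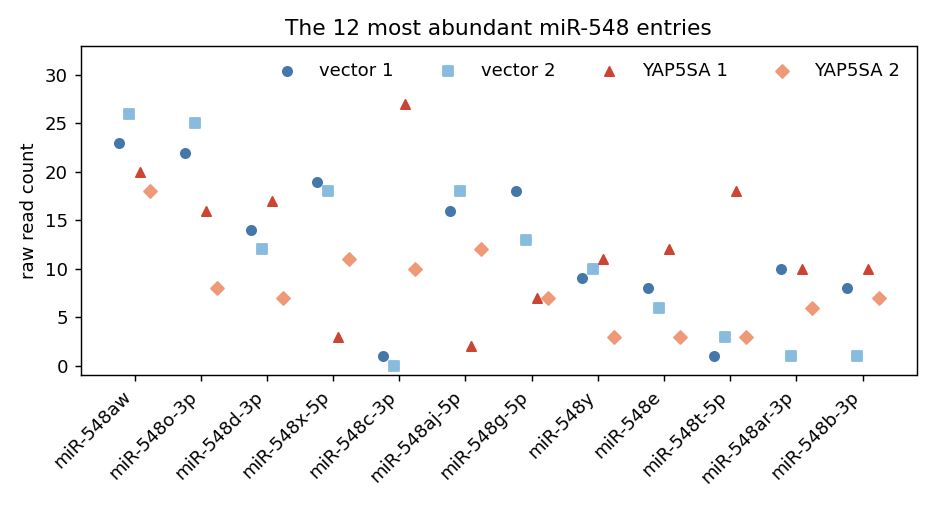
Raw read counts of the 12 most abundant miR-548 entries in each library (circles and squares vector replicates 1 and 2, triangles and diamonds YAP5SA replicates 1 and 2), in order of mean CPM. miR-548c-3p runs from 1 and 0 reads in vector to 27 and 10 in YAP5SA, while miR-548g-5p, miR-548x-5p and miR-548aj-5p are lower in both YAP5SA libraries.

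The expression change was tested with edgeR's quasi-likelihood test over all 602 miRNAs with enough counts, which left 7 of the 70 members. An entry needed about 10 reads in at least 2 libraries to enter, so these 7 do not stand for the family. One of them was called higher, beside 71 of 602 miRNAs (11.8%), and 0 were called lower, beside 21 of 602 (3.49%). DESeq2 also called 1 higher and 0 lower, beside 36 higher and 18 lower of 602 miRNAs. With limma on the authors' log2 values none of the 7 was called, beside 9 higher and 1 lower of 602. By edgeR, 2 of the 7 had an unadjusted p under 0.05 in the lower direction, beside 11.5% of all tested. The log2 fold change was under 0 for 6 of the 7, and 3 of these 6 rows share 1 sequence. The median of the 7 was -1.07, against 0.11 over all tested miRNAs. With identical sequences summed, an alternative chosen after seeing the data, it was -0.49 over the 5 members left, against 0.11 over all. With library totals in place of TMM scaling the median of all miRNAs moved to 0.61 and that of the 7 members to -0.51.

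miR-548c-3p was the member that rose. Vector replicates 1 and 2 held 1 and 0 of its reads, YAP5SA replicates 1 and 2 held 27 and 10. Both YAP5SA libraries thus lay above both vector libraries, with 197 and 52.1 CPM against 4.60 and 0. On the log2 scale the fold change was 4.82 ± 1.06 (SE), with an adjusted p of 0.030 by edgeR and Benjamini-Hochberg adjustment over 602 miRNAs. It passed the filter on low counts only through the YAP5SA libraries, where it is high, so an entry like it had to differ to be tested. From pooled counts of 37 against 1, the ratio of CPM was 46.4, with an exact binomial 95% interval of 7.83 to 1882 that leaves out the spread between replicates. The call was lost without vector replicate 1 (adjusted p = 0.085) and without vector replicate 2 (adjusted p = 0.14). Without YAP5SA replicate 2 the adjusted p was 3.09e-05, but that leaves YAP5SA replicate 1, the library that stands apart, as the only YAP5SA sample, assumed to vary like the vector pair. Without YAP5SA replicate 1 it had too few reads to be tested. Over 10 alternatives with a value, its adjusted p ran from 1.71e-06 to 0.14. The authors' deposited table gave it a fold change of 9.0 with p = 0.13.

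Lower values were seen for a single 5p sequence that the table lists under 3 names. miR-548g-5p had 18 and 13 reads in the vector libraries and 7 in each YAP5SA library. miR-548x-5p had 19 and 18 in vector and 3 and 11 in YAP5SA. miR-548aj-5p had 16 and 18 in vector and 2 and 12 in YAP5SA. With 7 reads in each YAP5SA library, miR-548g-5p passed the filter on low counts only through the vector libraries, where it is high. The rows of miR-548x-5p and miR-548aj-5p also needed a vector library to pass. In each row both YAP5SA libraries lay below both vector libraries, but the 3 rows are not independent, since reads of 1 sequence cannot be assigned among its 3 genes. The log2 fold changes were -1.23 ± 0.48 (SE) for miR-548g-5p (edgeR's adjusted p = 0.12), -1.51 ± 0.61 for miR-548x-5p (adjusted p = 0.13) and -1.40 ± 0.70 for miR-548aj-5p (adjusted p = 0.22), and none passed. The size turned on the YAP5SA library kept: the log2 fold change of miR-548x-5p was -1.01 without YAP5SA replicate 1 and -3.17 without YAP5SA replicate 2. For miR-548aj-5p it was -0.77 and -3.60, and for miR-548g-5p -1.38 and -1.73.

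Taken as 1 feature, the shared sequence had 53 and 49 reads in vector and 12 and 30 in YAP5SA, or 244 and 251 CPM against 87.7 and 156 CPM. It was the most abundant sequence of the family in vector cells, with 23.2% and 22.5% of family reads. In YAP5SA replicates 1 and 2 it held 2.96% and 15.9%. Summing identical sequences over the whole table before the fit, an alternative chosen after seeing the data, put it at -1.41 ± 0.51 (SE) on the log2 scale with edgeR's adjusted p at 0.087, still short of the threshold. That fit called 86 of 602 features higher (14.3%) and 29 lower (4.82%), with miR-548c-3p again the 1 member called. Without YAP5SA replicate 2 miR-548t-5p had enough reads to be fitted, and its log2 fold change was 2.49. The fit without YAP5SA replicate 2 holds YAP5SA replicate 1 as the only YAP5SA sample, with a spread taken from the vector pair. Its calls are therefore not read as results here. The fit without YAP5SA replicate 1 likewise holds 1 YAP5SA sample, and its calls are not counted either.

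Some family names differ chiefly in where the mature sequence starts. The shared 5p sequence begins 3 bases before miR-548ar-5p and runs through the same 20 bases, so its seed is GCAAAAG and that of miR-548ar-5p is AAAGUAA. The shared sequence had 144 reads over the 4 libraries, and miR-548ar-5p had 2. They come from different genes, on chromosomes 4, 21 and X for the shared sequence and 13 for miR-548ar-5p. These totals therefore do not measure a choice of start within 1 hairpin. All 19 entries with the seed AAAGUAA together had 25 and 25 reads in vector and 62 and 18 in YAP5SA.

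The other tested members did not pass. Their log2 fold changes by edgeR, with SE, were -1.07 ± 0.56 for miR-548o-3p (adjusted p = 0.24), -0.49 ± 0.47 for miR-548aw (adjusted p = 0.52) and -0.21 ± 0.58 for miR-548d-3p (adjusted p = 0.84). Without YAP5SA replicate 1 miR-548o-3p was at -1.81 (edgeR's adjusted p = 0.052), miR-548d-3p at -1.14 (adjusted p = 0.29) and miR-548aw at -0.71 (adjusted p = 0.34). With library totals in place of TMM the sign turned for miR-548aw (0.044) and for miR-548d-3p (0.35).

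**Figure D3:**
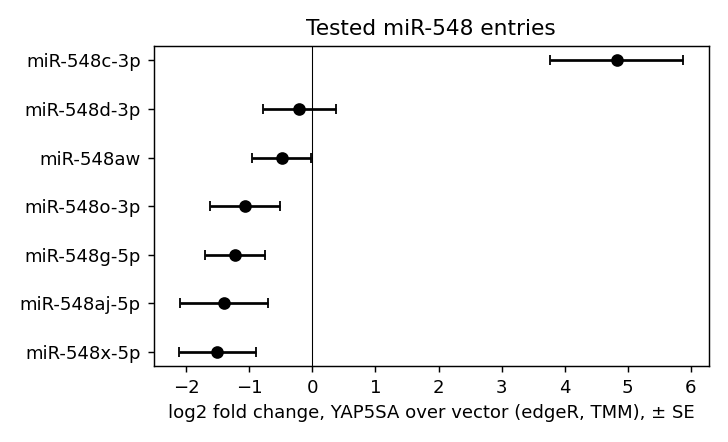
Log2 fold change of YAP5SA over vector for the 7 tested miR-548 entries (points) with its SE (bars), from edgeR with TMM scaling over 602 miRNAs. miR-548c-3p lies at 4.82 and the other 6 between -1.51 and -0.21; the 3 lowest points share 1 sequence.

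Over the whole family, the order of the 4 libraries was set beside that of the table. In CPM, both YAP5SA libraries lay above both vector libraries for 26 of 70 entries (37.1%), beside 52.3% of all 2039 entries and 48.8% of other entries of similar mean count. Both lay below for 3 of 70 (4.29%), the 3 rows of the shared sequence, beside 5.39% of all entries and 2.91% of other entries of similar mean count. Both YAP5SA libraries hold fewer reads than both vector libraries, so equal counts rank as higher in CPM, in the family as in the other entries. This is so for miR-548a-5p with 1 read in each library, for miR-548i with 3 and 4 in vector and 3 and 4 in YAP5SA, and for miR-548ad with 1 and 0 against 1 and 1. By raw counts, an order examined after seeing the data, both YAP5SA libraries lay above for 15 members (21.4%), beside 34.8% of all entries, and below for 5 (7.14%), beside 8.14%. Without YAP5SA replicate 1, the remaining YAP5SA library lay above both vector libraries in CPM for 26 members (37.1%), beside 58.9% of all entries, and below both for 14 of 70, beside 17.5%. A p under 0.05 was given in the authors' deposited table for 4 members (5.71%), beside 9.32% of all entries. In the authors' deposited table these were miR-548g-5p with a fold change of 0.325 (p = 0.022), miR-548o-3p with 0.382 (p = 0.046), miR-548al with 1.70 (p = 0.027) and miR-548ao-3p with 1.61 (p = 0.022). miR-548al had 1 and 1 reads in vector and 5 and 5 in YAP5SA, and miR-548ao-3p had 1 and 1 against 6 and 4.

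Entries of similar mean count gave the yardstick for these differences. In 2-fold bins of mean count, 1778 other entries fell beside the members, and their values were weighted by the number of members in each bin. In YAP5SA replicate 1 a member held on average 42.3 CPM and a similar other entry 41.3 CPM, which was 2.73 and 3.17 times their vector means. In YAP5SA replicate 2 a member held 14.1 CPM and a similar other entry 21.8 CPM, or 0.909 and 1.67 times vector. So both kinds of entry were high in YAP5SA replicate 1, and in YAP5SA replicate 2 the other entries were above vector while the family was not. Similar other entries with a GC content of at most 40% stood at 4.37 and 1.47 times vector in YAP5SA replicates 1 and 2. Both ratios were above those of the family. These comparisons are descriptions with no test. Of the 70 members 77.1% had their highest value in YAP5SA replicate 1, against 67.0% of similar other entries, and 7.14% had it in YAP5SA replicate 2, against 19.2%.

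In YAP5SA replicate 2 the members lay below the other entries in every bin from a mean count of 0.5 up except that of 2 to under 4. Among the 9 members with a mean count of 0.5 to under 1, the ratio to vector there was 0.925 against 1.67 for 43 other entries. It was 1.32 against 1.68 for the 16 members at 1 to under 2, 0.857 against 1.78 for the 12 at 4 to under 8, and 0.578 against 1.48 for the 2 at 16 to under 32. In YAP5SA replicate 1 the members lay above the other entries at 1 to under 4 and below them in the other bins. Among the 21 members with a mean count of 2 to under 4, the ratio to vector was 6.27 in YAP5SA replicate 1 and 1.89 in YAP5SA replicate 2, against 3.97 and 1.66 for 481 other entries. Among the 6 members with a mean count of 8 to under 16, it was 1.36 and 0.726, against 2.91 and 1.77 for 324 other entries. This bin holds the 3 rows of the shared sequence. Without those 3 rows the family total was 806 and 865 CPM in vector, 2871 CPM in YAP5SA replicate 1 and 828 CPM in YAP5SA replicate 2, and the last was 0.991 times the vector mean.

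**Figure D4:**
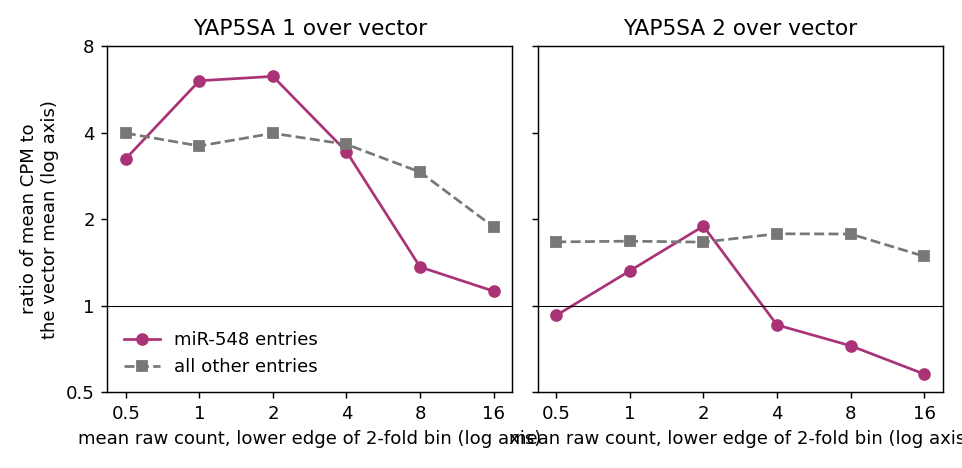
Ratio of mean CPM to the vector mean (log axis) by 2-fold bin of mean raw count (log axis) for miR-548 entries (circles) and all other entries (squares), in YAP5SA replicate 1 (left) and YAP5SA replicate 2 (right). At a mean count of 8 to under 16 the miR-548 entries stand at 1.36 and 0.726 and the other entries at 2.91 and 1.77.

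Over the 57 members with a mean count of at least 1, the median log2 ratio of YAP5SA to vector was 0.65 on log2 of TMM-scaled CPM plus a pseudocount of 5. It was 0.68 for 1723 other entries of similar mean count, a difference of -0.03. The difference was -0.52 without YAP5SA replicate 1 and 0.41 without YAP5SA replicate 2, so its sign depended on which YAP5SA library was kept. The difference was -0.12 when set against the 331 similar other entries with a GC content of at most 40%, closer to the composition of the family.

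In vector replicate 2 and YAP5SA replicate 1, detection was close to that of other entries of similar mean count. It was lower in vector replicate 1 and YAP5SA replicate 2. Reads were found for 68.6% of members and 74.7% of similar other entries in vector replicate 1, and for 72.9% and 70.6% in vector replicate 2. In YAP5SA replicate 1 the shares were 91.4% and 90.7%. In YAP5SA replicate 2 they were 71.4% and 80.4%.

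By seed, the family fell into 33 groups, and 5 seeds held by at least 3 entries covered 37 of the 70. The seed AAAGUAA, that of miR-548aq-5p, was held by 19 entries with 25 and 25 reads in vector and 62 and 18 in YAP5SA. AAAACUG, held by 5 entries, had 29 and 18 reads in vector and 48 and 14 in YAP5SA. AAAAACC, held by 4, had 16 and 14 in vector and 28 and 8 in YAP5SA. These 3 seed groups had their highest CPM in YAP5SA replicate 1 and their lowest in YAP5SA replicate 2. AAAAACU, that of miR-548aq-3p, was held by 6 entries with 4 and 8 reads in vector and 11 and 10 in YAP5SA, with both YAP5SA libraries higher in CPM. GCAAAAG, held by the 3 rows of the shared 5p sequence, was, of these 5 seeds, the one with its lowest CPM in YAP5SA replicate 1.

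Relatives outside the family name, also known to derive from Made1, were as rare. miR-570-3p had 7 and 4 reads in vector and 2 and 3 in YAP5SA, and miR-579 had 2 and 0 in vector and 5 and 1 in YAP5SA. miR-603 had 0 and 0 in vector and 2 and 3 in YAP5SA. miR-570-5p had 0 and 0 in vector and 3 and 2 in YAP5SA, and its sequence is identical to that of miR-548ai, which had 0 and 0 in vector and 2 and 1 in YAP5SA. None of these 5 had enough counts to be tested.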

How the data were processed

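Small RNA libraries were made from total RNA with an NEB kit, per the labels' protocols. The authors deposited unnormalized read counts for each mature miRNA, per the file headers. They also deposited log2 values of normalized read counts, group averages of these on the log2 scale, a fold change and a p-value, per the file headers. hg19 and FastQC are named in the submitters' processing notes. How the values were normalized and tested, how reads were aligned and counted, and how reads matching several entries were treated was not given in the sources used here. There were 2039 named miRNAs, and 3 unnamed lines were left out.

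The counts went into edgeR 4.0.16 under R 4.3.3 (quasi-likelihood test, TMM scaling, default low-count filter, group as the term) over all 602 miRNAs kept, with Benjamini-Hochberg adjustment and a threshold of 0.05. The SE was the log2 fold change divided by the square root of F. CPM values in the text are counts per 1000000 of the library total; log2 fold changes are on the TMM scale. The named members were those past the threshold, the 12 with the highest mean CPM, the tested extremes, and any at 0 in 1 group with at least 10 counts in each library of the other (none met this). Other members, where named, were picked out after their values were seen. The members and lists were chosen with earlier results of these data known. In simulated data for this comparison, with 602 miRNAs and 200 planted changes in each of 20 simulations, planted 2-fold changes were recovered in 19.3%, 4-fold in 72.8%, 8-fold in 91.8% and 16-fold in 97.2% of cases. All simulated miRNAs shared 1 dispersion, the setting for spread between replicates, and changes were planted at any abundance. No library was made to stand apart like YAP5SA replicate 1. The rates may therefore not hold for the tested members, whose counts were low. Alternatives used DESeq2 1.42.0, limma 3.58.1, other scalings, filters, a replicate block and each library left out. Sequences were matched to RefSeq (GRCh38.p14) and overlaps to GENCODE 29 with Python 3.11.15 and pandas 2.3.3; intervals used SciPy 1.17.1.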

Additional observations from a re-analysis of the deposited data

How the results depend on the processing

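Of the 7 tested members, 1 was called higher and 0 lower, and this held with RLE size factors, library totals, DESeq2 and the replicate block. Beside it, 78, 147, 36 and 102 of 602 miRNAs were called higher in these 4 settings. With no filter 1 of 70 members was called higher, beside 34 of 2034 miRNAs, and 0 lower, beside 14. With identical sequences summed 1 of 5 was called higher, beside 86 of 602, and 0 lower, beside 29. With limma on the authors' log2 values 0 were called higher, beside 9 of 602, and 0 lower, beside 1. A filter at a mean count of 20 left 1 member, miR-548aw, which was not called. miR-548c-3p, with a mean count of 9.5, could not be tested there. Leaving out 1 library keeps 1 sample in a group, so members called in those fits are not counted as results. With the replicate block, edgeR put miR-548c-3p at 4.92 on the log2 scale (adjusted p = 2.49e-05). The replicate numbers are not stated to pair the samples (Pearson r of their deviations 0.02 across 602 miRNAs).

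Over all miRNAs, the 71 higher and 21 lower became 36 higher with DESeq2, 147 and 12 with library totals, 9 and 1 with limma on the authors' values, 18 and 5 with the filter at a mean count of 20, 34 higher with no filter and 34 lower with the replicate block. Leaving out 1 library gave 1 to 124 higher and 0 to 159 lower. The median log2 fold change of the tested members, -1.07, became -0.51 with library totals, -1.42 on the authors' values, -0.12 with the filter at 20 (1 member left), -1.56 with no filter and -0.49 with identical sequences summed. Without 1 library it ran from -1.47 to -1.07. Library totals turned the log2 fold change of miR-548d-3p to 0.35 and of miR-548aw to 0.044.

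The ratio of the family totals, 1.82, was 1.25 with TMM effective library sizes, 1.59 without the 10 most abundant miRNAs in the total, 2.28 without the 3 most abundant members, and 0.909 to 2.73 without 1 library. The difference from entries of similar mean count ran from -0.12 to 0.06 over 6 settings and from -0.52 to 0.41 without 1 library. With at least 3 counts for detection, 20, 20, 50 and 27 members were detected in vector replicates 1 and 2 and YAP5SA replicates 1 and 2. Thinned to the shallowest depth, vector replicate 1 held an expected 38.6. Low counts limit all of these values, and the cause of these shifts was not tested. By raw counts in place of CPM, the 26 members above vector in both YAP5SA libraries became 15 and the 3 below became 5; without YAP5SA replicate 1 they were 26 and 14. The order by raw counts, the summing of identical sequences, the pseudocount of 1 CPM and the GC limit were chosen after seeing the data.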

Other observations

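Identical sequences under several names were not particular to miR-548. The table held 14 sequences listed under 2 or more names, in 36 entries, and in 0 of the 14 were all counts equal between the names. Among miR-548 entries, miR-548c-5p, miR-548o-5p and miR-548am-5p share another sequence, with 5, 1 and 2 reads over the 4 libraries. miR-548h-3p and miR-548z share a further one, with 1 and 7 reads.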
